A study of Mus musculus with 20 samples.

Results

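The left and right atrial appendages of heterozygous (het) mice were compared across all genes measured, to describe which left-right differences are present in the adult heart of these heterozygotes. The arrays were taken by their labels as LA het (left, 5 arrays) and RA het (right, 5 arrays), which is 10 of the 20 arrays of the study. The other 10 were LA wt and RA wt, the left and right atrial appendages of wild-type littermates, 5 arrays each, and they entered the fit and gave the wild-type side difference. All mice were of the outbred CD1 strain, 12 weeks old, and carried no other named allele or treatment. The genotype was taken from the labels and was not checked by a transcript. Total RNA of each sample was hybridised to an Illumina bead array, which reads each transcript as the brightness of a probe, here called its signal. Both sides were taken from the same 5 heterozygous mice, but the labels do not tie arrays to mice, so the tests treat the 10 arrays as independent samples. P-values measure the spread between arrays within the 4 groups, so the wild-type arrays are part of it. When the het arrays were fitted alone, 90 genes were called higher in LA het and 124 in RA het. The appendages are mixed tissue, so fewer cells of a type and less RNA per cell cannot be told apart.

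The left and right atria arise from separate sides of the embryo, which early left-right signalling sets apart, and they keep different structures in the adult. The right atrium holds the sinoatrial node, where the heartbeat starts, and receives the caval veins, while the left receives the pulmonary veins. Each appendage is a muscular pouch lined by endocardium and covered by epicardium, with fibroblasts, vessels, nerves and resident immune cells between its muscle cells.

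The arrays were separated by side, and 3 of them stood apart from their groups. On an axis drawn through the wild-type means over the 656 probes called between wild-type sides, with RA wt at 0 and LA wt at 1, the LA het arrays lay at 0.886, 0.648, 0.908, 0.833 and 0.918 and the RA het arrays at 0.178, 0.0172, 0.036, 0.207 and 0.0131. LA het replicate 2, RA het replicate 1 and RA het replicate 4 thus lay nearer to the other side than the rest. The wild-type arrays chose the probes, so the shortfall from 1 and 0 is a description only. The probes of Myl2 and Bmp10 are among the 656, so their signals are part of an array's place and not separate from it. Myl2, the ventricular myosin light chain, had signals of 107.6, 3999.7, 224.3, 119.0 and 237.2 in LA het, against 11228.1, 402.0, 3187.5, 33896.9 and 543.6 in RA het, so the same 3 arrays were the highest of their sides. Adipoq, the fat cell hormone adiponectin, had 8120.3, 2284.6, 96.5, 2181.9 and 206.2 in LA het and 4794.4, 180.8, 462.2, 1180.0 and 365.8 in RA het. Ucp1, the uncoupling protein of brown fat, passed a signal of 100 on LA het replicates 1, 2 and 4 and RA het replicate 1. Summed atrial muscle markers (Nppa, Myl7, Myl4 and Sln, all 4 detected on every array) ran from 129630 to 138350 in LA het and from 124280 to 136990 in RA het. All 4 lay near the highest signal of an array, 38625.9, so this sum has little room to vary and does not show equal muscle content. The 5 fat cell markers, of which Plin1 was detected on 2 LA het and 1 RA het arrays and Ucp1 on 3 and 1, summed to between 319.6 and 10689 in LA het and between 659.3 and 8049.4 in RA het, and ventricular markers to between 3993.8 and 17615 in LA het and between 2532.5 and 66923 in RA het, with Irx4 detected on 1 RA het array alone. The part of fat, ventricular and smooth muscle RNA in the side differences was not tested, and for the lists of genes below the calls without the 4 arrays with Ucp1 over 100 are given where they differ.

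**Figure D1:**
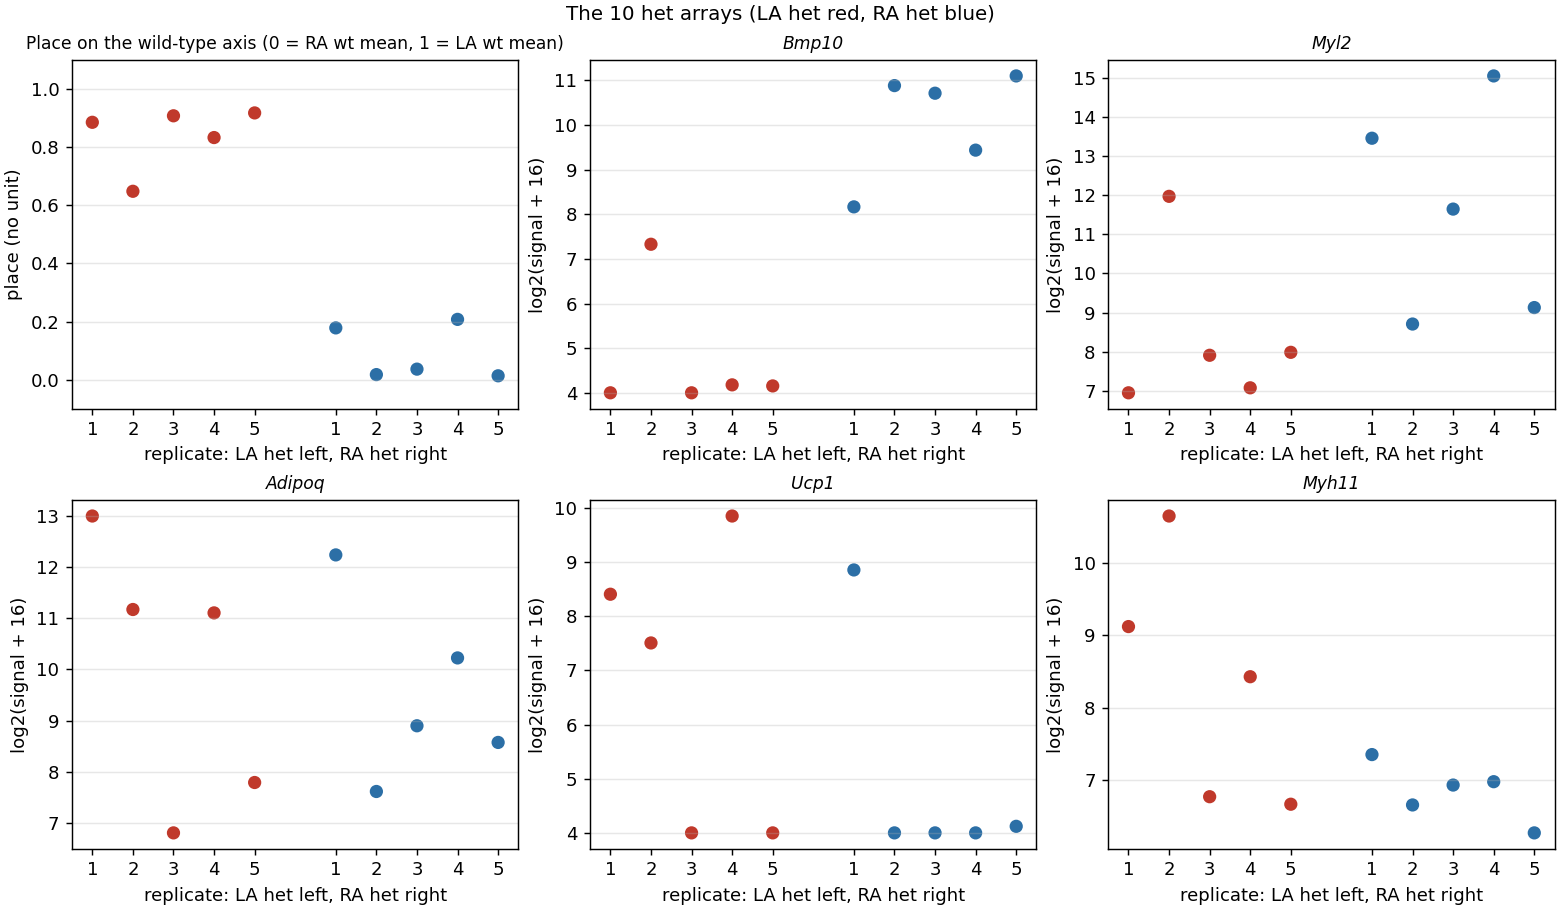
The 10 het arrays by replicate number, LA het in red on the left and RA het in blue on the right of each panel. The first panel gives the place of each array on the wild-type left-right axis (0 is the RA wt mean, 1 the LA wt mean), the other panels log2(signal + 16) of 5 genes. LA het replicate 2 lies at 0.648 on the axis, has the highest Bmp10 and Myl2 signals of its side, and Ucp1 is above 100 on 4 arrays. Bmp10 and Myl2 are among the genes whose probes draw the axis.

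Of 11154 genes tested, 172 were higher in LA het and 188 higher in RA het, which is 1.54% and 1.69% of them. Right-sided differences were the larger ones, with 18 genes over 4-fold higher in RA het and 9 in LA het, and a median log2 difference of -0.99 among those higher in RA het and 0.79 among those higher in LA het. Over all genes tested the median difference was -0.0026. By probe, 512 of 20097 passed (2.55%), 247 of them higher in LA het and 265 in RA het, and 2558 had an unadjusted p under 0.05. A gene was represented by its brightest tested probe, and was called at an adjusted p under 0.05 by limma with Benjamini-Hochberg adjustment over all probes. The signals of LA het and RA het did not overlap for 288 of the 360 called genes and for 518 of all genes tested (4.64%). All differences are of log2(signal + 16), left minus right, so that a positive value is higher in LA het and the change of dim probes is understated. With LA het replicate 1 left out, 150 probes were called higher in LA het, and with LA het replicate 3 left out, 161. When the 4 arrays whose Ucp1 passed 100 were left out, so that 2 LA het and 4 RA het arrays stayed, 106 probes were higher in LA het and 142 in RA het.

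The 4 genes given first are a growth factor, a lectin, a chemokine and a complement receptor, all higher in RA het. Bmp10, a growth factor of the BMP family made by atrial muscle, had signals of -3.7, 144.7, -3.5, 2.1 and 1.8 in LA het, against 271.2, 1872.7, 1661.8, 677.2 and 2178.6 in RA het. It was detected on 1 of 5 LA het arrays, replicate 2, and on all 5 of RA het, with no overlap. The log2 difference was -5.33 (SE 0.604, n = 5 arrays a side, adjusted p = 2.09e-05 by limma), and from -6.82 to -4.06 over 26 other settings. Cd207, which encodes langerin, a lectin of Langerhans cells and some macrophages, had 21.1, 194.4, 43.2, 73.3 and 40.5 in LA het, against 1693.9, 1095.2, 1522.5, 866.0 and 1609.1 in RA het. Cxcl13, a chemokine that attracts B cells, had 97.2, 91.1, 71.6, 70.3 and 56.5 in LA het, against 1422.2, 1250.7, 1148.6, 584.1 and 1935.0 in RA het. Neither gene's sides overlapped, and the log2 differences were -4.16 (SE 0.322, adjusted p = 2.16e-07 by limma) for Cd207 and -3.70 (SE 0.27, adjusted p = 1.24e-07) for Cxcl13. Vsig4, a complement receptor of resident macrophages, had 113.7, 469.0, 306.9, 263.9 and 169.9 in LA het, against 1855.7, 2888.0, 2243.0, 1451.9 and 2725.7 in RA het (log2 difference -3.10, 8.59-fold).

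Hormone and transmitter genes were also among the leading right-sided ones. Hamp, which encodes the iron hormone hepcidin, had 1924.7, 5310.8, 738.5, 1674.0 and 1058.7 in LA het, against 15124.9, 15540.2, 16443.5, 20016.4 and 15938.7 in RA het, a 9.74-fold difference without overlap. Its near-identical neighbour Hamp2 differed by 12.1-fold, and the probes of the pair may read both. Adm, the vasodilator peptide adrenomedullin, had 41.8, 167.6, 44.5, 41.2 and 41.2 in LA het, against 454.2, 1200.8, 705.0, 616.9 and 643.2 in RA het (log2 difference -3.26, SE 0.311, adjusted p = 2.45e-06 by limma). Dbh, dopamine beta-hydroxylase of noradrenaline synthesis, had 59.2, 101.2, 69.9, 67.4 and 36.2 in LA het, against 419.5, 556.5, 551.8, 442.8 and 372.8 in RA het. It was 5.98-fold higher in RA het, and none of its arrays overlapped. Fxyd3, a regulator of the sodium pump, was 7.37-fold higher in RA het, Ptgds (prostaglandin D synthase) 5.39-fold, the G protein subunit Gng13 4.82-fold and Arpp21, a phosphoprotein regulated by cyclic AMP in neurons, 4.59-fold. Ryr3, a channel that releases calcium from internal stores, differed by 4.46-fold in the same direction. Cst9, a cystatin, was detected on 0 LA het arrays and all 5 RA het arrays and was at least 2.35-fold higher in RA het. Cntn2, an adhesion protein that marks the conduction system, had 69.2, 178.2, 19.3, 44.5 and 18.5 in LA het, against 475.0, 572.7, 375.7, 85.7 and 320.1 in RA het. The sides of Cntn2 overlapped by RA het replicate 4, and its call was lost without LA het replicate 3 or LA het replicate 5 (adjusted p up to 0.0546 by limma).

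On the left, the largest differences were those of a chemokine of lymphatic vessels, a matrix protease inhibitor and a ferritin receptor. Ccl21a had signals of 440.9, 271.3, 864.6, 807.6 and 429.9 in LA het, against 241.9, -2.5, 44.6, 180.6 and 26.1 in RA het, where it was detected on 4 of 5 arrays. The sides did not overlap, and the log2 difference was 2.86 (SE 0.673, n = 5 arrays a side, adjusted p = 0.0234 by limma). Ccl21c (5.42-fold) and the unplaced locus LOC100041504 (5.77-fold) were, like it, highest on LA het replicates 3 and 4 among the het arrays. Probes of these 3 can read near-identical copies, and the calls of Ccl21a and LOC100041504 were lost when LA het replicate 3 or 4 or RA het replicate 2, 3 or 5 was left out (adjusted p up to 0.0682 and 0.0631). Timp4, an inhibitor of matrix metalloproteinases that is abundant in heart, had 152.8, 103.5, 206.8, 117.0 and 160.7 in LA het, against 8.8, 2.9, 10.8, 31.4 and 1.0 in RA het, where 1 array detected it. Scara5, a receptor that takes up ferritin and marks adventitial fibroblasts, had 824.1, 677.2, 707.1, 680.5 and 573.6 in LA het, against 178.4, 25.8, 84.8, 164.2 and 104.2 in RA het. Both genes were without overlap, at log2 differences of 2.67 (SE 0.393) for Timp4 and 2.65 (SE 0.355) for Scara5. A second, dimmer probe of Scara5 was not called and differed the other way, by -0.41.

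Several left-sided genes are known from signalling inside muscle or nerve cells. Phlda1, a pleckstrin-homology protein, had 1657.9, 1211.1, 1099.2, 1550.9 and 1152.1 in LA het, against 249.0, 112.3, 303.2, 284.3 and 227.3 in RA het (log2 difference 2.47, SE 0.206, adjusted p = 4.78e-07 by limma). Ddit4l, an inhibitor of mTOR signalling, had 593.6, 338.0, 406.8, 407.2 and 620.0 in LA het, against 96.2, 35.3, 79.5, 121.8 and 51.9 in RA het (2.44, SE 0.221, adjusted p = 1.3e-06). Neither overlapped between the sides. Slc24a2, a potassium-dependent sodium-calcium exchanger, had 493.4, 385.4, 439.4, 326.3 and 461.9 in LA het, against 118.8, 62.9, 92.0, 97.9 and 43.3 in RA het, 4.56-fold higher on the left. Mapk10, the neuronal JNK kinase, and Rprm, a p53-induced brake on the cell cycle, were detected on all 5 LA het and 0 RA het arrays and were at least 2.54-fold and at least 2.75-fold higher in LA het. Vtn (the adhesive plasma protein vitronectin, 3.71-fold), the synaptic scaffold Dlgap1 (3.70-fold) and the protease inhibitor Pi16, a fibroblast marker (3.38-fold), were also higher in LA het. Together with 2310002L09Rik (3.90-fold) and D630003M21Rik (3.65-fold) they completed the named left-sided genes. The second probe of Dlgap1 differed by 0.59 and was not called.

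**Figure D2:**
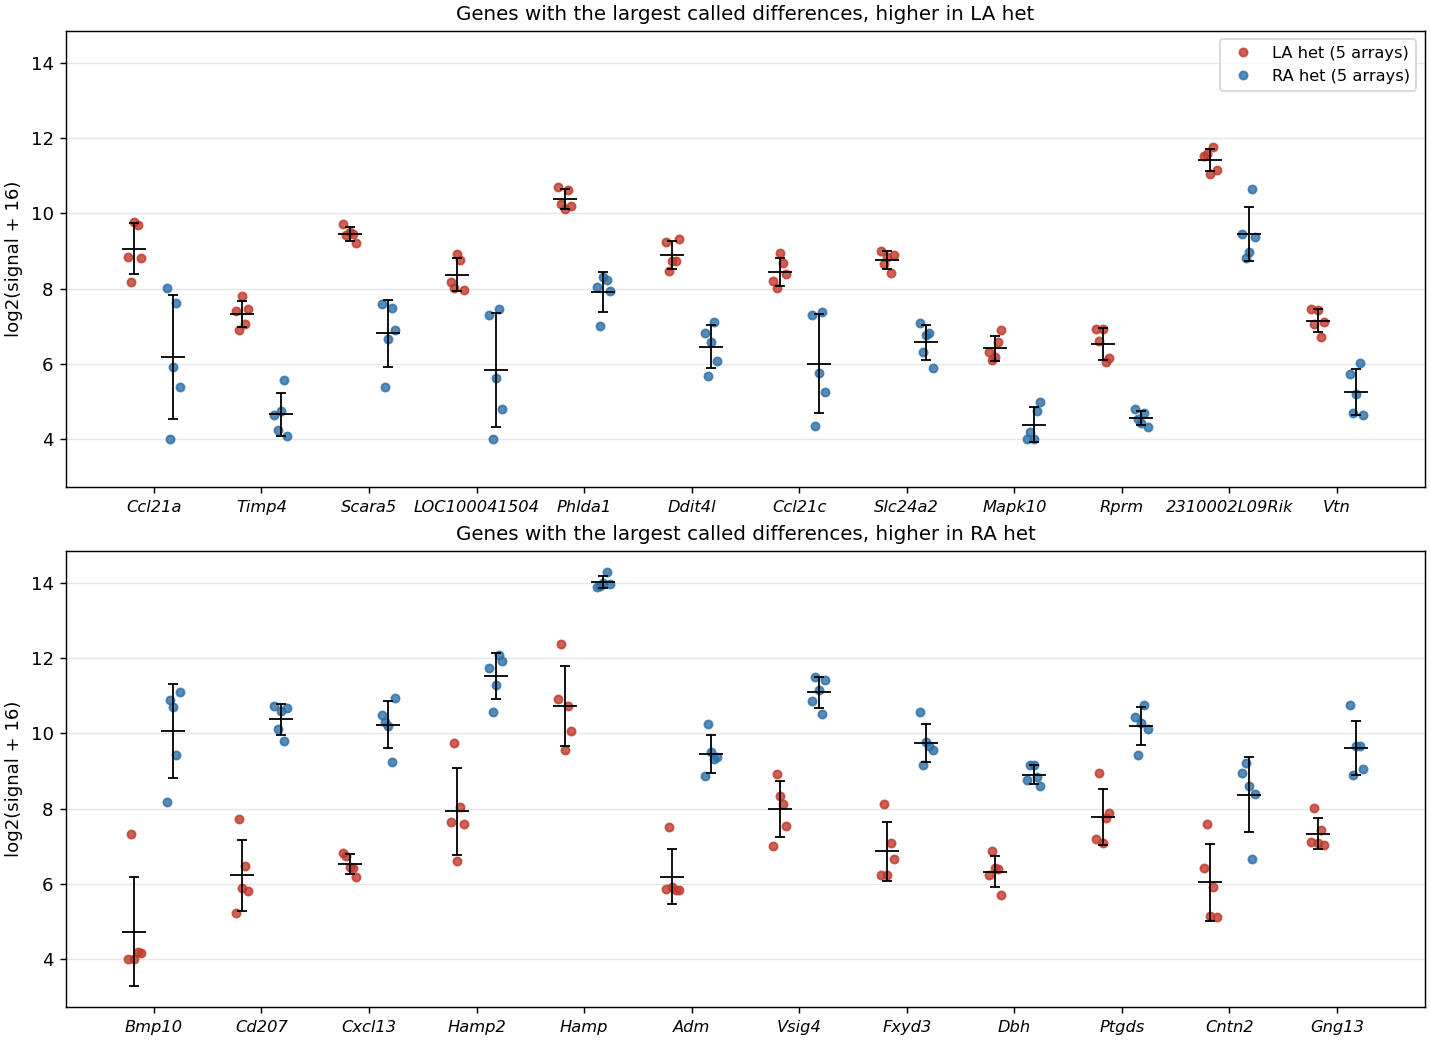
Log2(signal + 16) of the 12 genes with the largest called differences higher in LA het (top) and in RA het (bottom), LA het left in red and RA het right in blue. Points are single arrays, and black bars the mean and SD of 5 arrays. Cntn2 overlaps between the sides, and LA het replicate 2 is the highest LA het array for Bmp10, Adm and Cd207.

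Promoters were searched for TAATCC, the letters of the bicoid-type homeobox motif, on either strand, in windows of 250 bases before and 50 after the gene's start (RefSeq, build GRCm38.p6). The letters stood in 11 of 127 windows of genes called higher in LA het (8.66%), 9 of 147 of those called higher in RA het (6.12%) and 635 of 9017 of all tested genes with a window (7.04%). The windows of Bmp10 and Ccl21a, the largest differences on each side, hold none, and those of 2310002L09Rik and Sfrp2 are the holders with the largest difference on each side. They are printed 5′ to 3′, with capitals for a match.
Ccl21a, chr4:42773942-42774241, minus strand: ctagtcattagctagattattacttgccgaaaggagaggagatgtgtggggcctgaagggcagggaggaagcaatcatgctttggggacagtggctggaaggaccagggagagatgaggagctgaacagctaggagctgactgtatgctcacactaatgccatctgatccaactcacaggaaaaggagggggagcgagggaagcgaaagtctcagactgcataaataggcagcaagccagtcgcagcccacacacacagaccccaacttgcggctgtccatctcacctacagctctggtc
2310002L09Rik, chr4:73950797-73951096, minus strand: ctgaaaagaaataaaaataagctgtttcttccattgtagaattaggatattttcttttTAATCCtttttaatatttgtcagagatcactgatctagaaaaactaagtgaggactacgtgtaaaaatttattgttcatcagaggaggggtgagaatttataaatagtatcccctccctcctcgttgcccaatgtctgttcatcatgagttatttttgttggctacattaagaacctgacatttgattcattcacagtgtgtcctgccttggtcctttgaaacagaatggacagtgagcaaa
Bmp10, chr6:87428744-87429043, plus strand: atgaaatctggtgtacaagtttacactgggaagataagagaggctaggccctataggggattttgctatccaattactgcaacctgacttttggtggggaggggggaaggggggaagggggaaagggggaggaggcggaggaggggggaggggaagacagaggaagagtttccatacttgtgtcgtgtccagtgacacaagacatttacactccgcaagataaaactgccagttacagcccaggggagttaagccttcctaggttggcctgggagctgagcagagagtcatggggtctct
Sfrp2, chr3:83766071-83766370, plus strand: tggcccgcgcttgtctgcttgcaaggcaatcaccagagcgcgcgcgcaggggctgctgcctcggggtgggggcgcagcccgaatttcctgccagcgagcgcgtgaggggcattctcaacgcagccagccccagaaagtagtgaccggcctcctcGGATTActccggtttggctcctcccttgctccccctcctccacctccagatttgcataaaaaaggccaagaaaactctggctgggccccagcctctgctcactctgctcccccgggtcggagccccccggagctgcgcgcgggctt
The match of 2310002L09Rik starts at position -192 and that of Sfrp2, as the reverse complement, at position -96, counted from the gene's first base as 1. A match of letters is no evidence of binding, and these windows say nothing about sites farther away.

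Genes of the BMP pathway that were called all pointed to the right. BMP ligands bind receptor kinases that activate Smad proteins, and the Id genes, inhibitors of bHLH transcription factors, are their classic targets. Of 27 tested BMP and TGF-beta genes, 6 were higher in RA het and 0 in LA het, with a list median of -0.0057. Over all genes tested, 1.54% were higher in LA het and 1.69% in RA het, and the counts of this and all later lists stand beside these shares. The lists were written with earlier results of these data known, so their counts describe the members and test no pathway. Id1 had signals of 303.8, 434.5, 327.7, 385.2 and 273.8 in LA het, against 1445.6, 746.1, 642.7, 692.0 and 659.8 in RA het (log2 difference -1.19, SE 0.178, adjusted p = 0.000555 by limma). Id3 differed by -1.07 and Id2 by -1.02, and the sides overlapped for none of these 3. The endothelial coreceptor gene Eng differed by -0.56 and the receptor gene Acvr1 by -0.47. Without the 4 arrays with Ucp1 over 100, the list had 4 calls, Bmp10, Id1, Acvr1 and Id4, all higher in RA het, and with 3 marker genes (Upk3b, Adipoq, Myl2) added to the model it had 2, Bmp10 and Id1.

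The sinoatrial node list had the lowest median of any list with a called member. Of 10 tested genes, 4 were higher in RA het and 0 in LA het, with a median of -0.68. Vsnl1, a neuronal calcium sensor found in the node, had 69.8, 114.1, 58.2, 47.2 and 45.6 in LA het, against 264.4, 320.2, 242.4, 157.9 and 195.0 in RA het, and Tbx3, the repressor that keeps node cells from becoming working muscle, had 75.9, 127.6, 84.7, 44.8 and 106.9 in LA het, against 190.3, 163.2, 211.3, 196.6 and 256.5 in RA het. Both were without overlap, with log2 differences of -1.62 (SE 0.248, adjusted p = 0.000645 by limma) and -1.12 (SE 0.24, adjusted p = 0.0121). The second probe of Tbx3 differed by -0.67 and was not called. Rgs6, which speeds the end of vagal signalling in the node, differed by -1.16 and Cacna1g, a T-type calcium channel, by -1.01. Shox2, a homeobox factor of the node, had 103.5, 126.6, 34.7, 34.9 and 55.8 in LA het and 326.5, 169.9, 140.8, 45.0 and 117.4 in RA het. Its sides overlapped, and the difference of -0.94 (SE 0.387) did not pass (adjusted p = 0.289). Leaving out the 4 arrays with Ucp1 over 100 left Vsnl1 and Rgs6 as calls.

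Among 19 cardiac transcription factors, 5 were higher in RA het and 0 in LA het (median -0.089). Hey1, a Notch target of atrial muscle and endocardium, had 529.5, 688.1, 775.9, 755.0 and 627.0 in LA het, against 1176.2, 1676.1, 1387.0, 1298.0 and 1459.5 in RA het, without overlap (log2 difference -1.04, SE 0.114, adjusted p = 1.38e-05 by limma). Gata5, an endocardial and epicardial factor, was detected on 0 LA het and 5 RA het arrays and was at least 1.52-fold higher in RA het. Irx3 (-0.81), Tbx20 (-0.79) and Tbx2 (-0.64), patterning factors of the chambers and conduction system, were called too, but lost the call without 7, 9 and 9 of the 10 het arrays left out in turn (adjusted p up to 0.0891, 0.108 and 0.121 by limma). With the 3 arrays that stood apart left out together, and also without those with Ucp1 over 100, the calls were Hey1 and Tbx20. Nkx2-5, the core factor of heart muscle, had a difference of -0.09 (adjusted p = 0.819) and Tbx5, of the atrial septum and forelimb, 0.52 (adjusted p = 0.663), with 15.0 and 17.3 on RA het replicates 1 and 4 and 65.3 or more on the other 8 het arrays. In the list of the left-right axis 0 of 7 tested genes were called. Lefty1, a Nodal inhibitor of the embryonic left side, was nearest, at -0.85 (adjusted p = 0.0581), with 3.2, 19.4, 12.7, 15.5 and 16.7 in LA het and 69.5, 27.7, 35.1, 35.5 and 23.1 in RA het, and 1 of 5 LA het arrays detected it.

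Wnt signalling had 3 of 20 tested genes higher in RA het and 0 in LA het. The secreted Wnt antagonists Sfrp2, with 93.1, 91.1, 115.3, 61.6 and 85.2 in LA het against 241.8, 415.3, 235.6, 153.6 and 185.8 in RA het, and Frzb, with 44.5, 56.4, 49.8, 31.7 and 53.9 in LA het against 67.7, 115.0, 124.4, 108.8 and 83.0 in RA het, did not overlap between the sides. Their log2 differences were -1.26 (adjusted p = 0.0364 by limma) and -0.86 (adjusted p = 0.00187). Axin2, a feedback target of the pathway, differed by -0.62. The call of Sfrp2 was lost without 7 of the 10 het arrays in turn (adjusted p up to 0.103), and that of Axin2 without LA het replicate 5, RA het replicate 2 or RA het replicate 5 (up to 0.0575). Without the arrays with Ucp1 over 100 the calls were Frzb and Axin2.

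**Figure D3:**
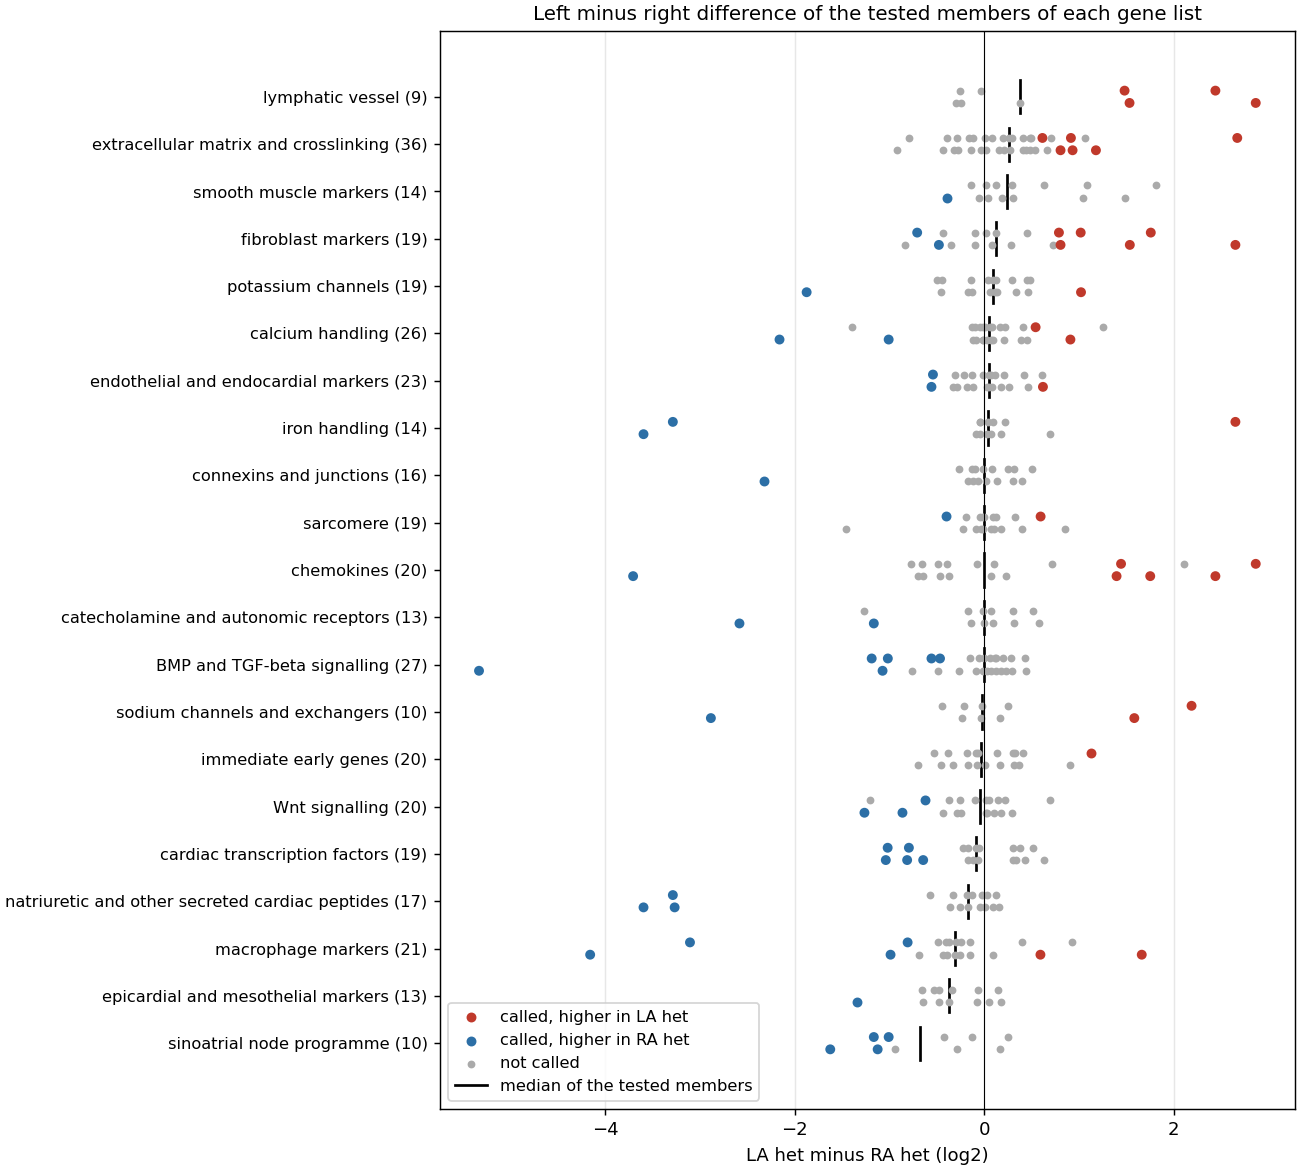
Left minus right difference (log2) of every tested member of each list with a called gene, number tested in brackets, with the list's median as a black bar. Red points are called higher in LA het, blue points called higher in RA het, grey points not called. The node, transcription factor, BMP and Wnt lists hold blue calls and no red ones, and the lymphatic and matrix lists red calls and no blue ones.

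Secreted cardiac peptides had 3 of 17 tested members higher in RA het, the genes Hamp, Hamp2 and Adm given above, and 0 in LA het. Hamp and Hamp2 may be the same signal, here and among the iron genes, as their probes may read both. The natriuretic peptide genes were high on both sides. Nppa, atrial natriuretic peptide, lay between 34092.5 and 38625.9 in LA het and between 32864.2 and 38625.9 in RA het, with a difference of 0.03 (SE 0.076, adjusted p = 0.927 by limma), but it stood at or near the highest signal of an array, 38625.9, where a difference may be understated. Nppb differed by -0.25 (adjusted p = 0.737). The atrial muscle genes Myl7 (0.11), Myl4 (-0.00) and Sln (0.01), also near that signal, did not pass. Of 14 iron genes, the ferritin receptor Scara5 was higher in LA het and the hepcidin genes Hamp and Hamp2 higher in RA het. The transferrin receptor Tfrc differed by -0.08 (adjusted p = 0.925).

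Ion channel genes split between the sides. Of 19 tested potassium channel genes, 1 was higher in LA het and 1 in RA het, where 1.54% of all genes were higher in LA het and 1.69% in RA het. Kcne1, the partner subunit of the slow delayed rectifier, had 13.7, 25.8, 15.6, 12.4 and 29.1 in LA het, against 217.5, 59.2, 125.5, 248.4 and 34.3 in RA het. It was detected on 3 of 5 LA het arrays and differed by -1.87 (SE 0.379, adjusted p = 0.00785 by limma), without overlap, while its second probe differed by -0.22 and was not called. Kcnk2, the stretch-sensitive channel TREK-1, differed by 1.02 with overlapping sides, and its call was lost without LA het replicate 1, RA het replicate 2 or RA het replicate 3 (adjusted p up to 0.0617). Without the arrays with Ucp1 over 100, 0 potassium channel genes were called. Scn4b, a sodium channel beta subunit, had 128.5, 140.3, 52.1, 57.4 and 123.5 in LA het and 39.5, 4.7, 11.9, 69.6 and 7.7 in RA het, overlapping by RA het replicate 4. Its difference of 1.58 stood just inside the threshold (adjusted p = 0.0487) and was lost without 7 of the 10 arrays in turn (up to 0.129). The list of sodium channels, exchangers and pump regulators had 2 of 10 higher in LA het (Slc24a2 and Scn4b) and 1 in RA het (Fxyd3). The second probe of Scn4b differed by -0.06, and without the arrays with Ucp1 over 100 Scn4b was not called. Calcium handling had 2 of 26 tested genes higher in LA het, the SERCA3 pump Atp2a3 (0.91) and the kinase subunit Camk2b (0.54), and 2 higher in RA het, Ryr3 and Cacna1g. Without the arrays with Ucp1 over 100 the calls were Camk2b and Ryr3, and with the marker genes in the model Atp2a3 and Ryr3. The channel Kcnj3, which carries the vagal potassium current, differed by 0.45 (adjusted p = 0.579). The connexins Gja5 and Gja1, which couple atrial muscle cells, differed by 0.30 (adjusted p = 0.597) and 0.14 (adjusted p = 0.739), and in their list of 16 Cntn2 alone was called. Of the catecholamine and autonomic receptor list, 2 of 13 were higher in RA het, Dbh and Rgs6.

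Of the muscle and metabolism lists, the sarcomere list held calls, 1 a side of 19 tested, where 1.54% of all genes were higher in LA het and 1.69% in RA het. Myom2, an M-band protein, was higher in LA het (0.60) and Des, the filament protein desmin, higher in RA het (-0.40). Each call was lost without 8 of the 10 het arrays in turn (adjusted p up to 0.122 and 0.116 by limma), and neither was made without the arrays with Ucp1 over 100. Ventricular markers had 0 calls among 4, although Myl2 differed by -3.22, with an SE of 1.2 (adjusted p = 0.218). Counts were 0 of 39 for oxidative phosphorylation, 0 of 26 for fatty acid oxidation, 0 of 9 for fast skeletal muscle, 0 of 15 for the cell cycle and 0 of 12 for the circadian clock, lists so short that the share over all genes would give about 1 call or none in each. Egr3, an immediate early transcription factor, was the 1 called gene of 20 on its list, at 1.12, with 147.5, 135.2, 164.1, 118.4 and 150.5 in LA het, against 52.1, 58.6, 85.9, 48.7 and 44.3 in RA het. Its second probe differed by 0.20 and was not called, and the list had 0 calls without the arrays with Ucp1 over 100, with the 3 arrays that stood apart left out, or with the marker genes in the model.

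Matrix and fibroblast genes were called mostly on the left. Of 36 tested matrix and crosslinking genes, 6 were higher in LA het and 0 in RA het, with a median of 0.26. Lox, which crosslinks collagen and elastin, had 140.0, 242.0, 72.9, 107.8 and 108.9 in LA het, against 46.2, 44.8, 52.6, 43.4 and 44.3 in RA het, without overlap (log2 difference 1.18, SE 0.237, adjusted p = 0.0074 by limma). Besides Timp4 the others were the collagen chains Col8a1 (0.93), Col6a2 (0.92) and Col15a1 (0.81) and the gelatinase Mmp2 (0.61), each of which lost its call without 6 or more of the 10 het arrays in turn (adjusted p up to 0.0991, 0.0996, 0.114 and 0.141). With the 3 arrays that stood apart left out together, and also without those with Ucp1 over 100, Timp4 was the 1 matrix gene called. The smooth muscle marker Myh11 had 541.3, 1590.4, 93.3, 328.8 and 85.7 in LA het, against 147.6, 85, 106.2, 110.2 and 61.3 in RA het. The summed smooth muscle markers ran from 2491.8 to 26849 in LA het and from 4113.5 to 9033.9 in RA het, with Cnn1 not detected. Most of that sum was Acta2, with 2386.4 to 24946.9 in LA het and 3983.4 to 8915.2 in RA het. The part of smooth muscle RNA in the matrix differences was not tested. Smooth muscle markers themselves had 0 of 14 higher in LA het and 1, Des, higher in RA het, a call not made without the arrays with Ucp1 over 100.

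Fibroblast markers had 6 of 19 higher in LA het and 2 in RA het. The left-sided ones included Mfap4, a microfibril protein, with 1873.4, 2039.0, 2099.2, 1505.5 and 1449.2 in LA het, against 669.5, 928.4, 764.9, 437.8 and 372.4 in RA het (log2 difference 1.54, SE 0.242, adjusted p = 0.000784 by limma). Pi16 had 2429.1, 1922.2, 2613.2, 2360.4 and 2043.0 in LA het, against 1437.6, 603.2, 420.5, 660.6 and 502.6 in RA het, and neither gene overlapped between the sides. Cd248, a stromal receptor, differed by 1.02 and the elastic fibre gene Mfap5 by 0.79, beside Scara5 and Col15a1. On the right were Tcf21, the transcription factor of epicardium-derived fibroblasts, at -0.71 and Dpt, a dermatopontin that binds decorin, at -0.48, the call of Dpt being lost without 7 arrays in turn (adjusted p up to 0.0781). The summed levels of 4 fibroblast markers (Pdgfra, Dcn, Tcf21 and Lum), all detected, lay between 28806 and 31531 in LA het and between 26375 and 34939 in RA het. Most of this sum was Dcn, with 23188.7 to 25939.5 in LA het and 22261.2 to 29382.7 in RA het. It therefore says little about the other markers, among them Tcf21, which was called. Without the arrays with Ucp1 over 100, the calls of this list were Pi16 and Scara5.

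Lymphatic vessel genes were the list with the highest median, 0.38, and 4 of 9 were higher in LA het and 0 in RA het. The 4 include Ccl21a and Ccl21c, whose probes can read near-identical copies. They may be the same signal, here and in the chemokine count below. Mmrn1, a multimerin of lymphatic endothelium, had 45.1, 31.9, 67.1, 40.8 and 33.7 in LA het, against 2.0, -9.2, -2.3, 23.6 and 2.5 in RA het, where 1 array detected it, and Reln, the secreted glycoprotein reelin, had 134.2, 123.8, 188.3, 165.2 and 83.4 in LA het, against 68.7, 7.5, 31, 86.7 and 31.4 in RA het. Mmrn1 did not overlap between the sides (log2 difference 1.53, adjusted p = 0.00195 by limma), while Reln overlapped by RA het replicate 4 and lost its call of 1.48 without 6 of the 10 arrays in turn (adjusted p up to 0.0704). The markers Prox1, Lyve1 and Pdpn were detected on every het array and were not called, and Flt4 was not detected. The summed level of the 4 lay between 2312.6 and 3728.2 in LA het and between 2646.7 and 3547 in RA het. Pdpn alone gave 884 to 2297.5 in LA het and 1421.2 to 2095 in RA het. Prox1 is also on the transcription factor list and Lyve1 on the macrophage list, so the sum is no measure of lymphatic vessels alone. Without the arrays whose Ucp1 passed 100, which leaves 2 LA het arrays, 0 lymphatic genes were called, and in the fit of the 10 het arrays alone 2 were, Ccl21c and Mmrn1. Among 20 chemokine genes, 5 were higher in LA het and 1, Cxcl13, in RA het. Beside the Ccl21 genes these were the eosinophil chemokine Ccl11 (1.75), the monocyte chemokine Ccl12 (1.40) and Cxcl14 (1.44), a chemokine of resting epithelia and stroma. Ccl12 and Cxcl14 overlapped between the sides, and the call of Ccl12 was lost without LA het replicate 3 or 5 or RA het replicate 2 or 5 (adjusted p up to 0.0746). With those Ucp1 arrays left out, the left-sided calls of this list were 3, Ccl12, Ccl7 and Ccl8.

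Macrophage markers were called in both directions. Of 21 tested, 4 were higher in RA het and 2 in LA het, with a median of -0.31. Beside Cd207 and Vsig4 the right-sided ones were Cx3cr1, the fractalkine receptor of resident macrophages, and Aif1, which encodes the marker Iba1, at -0.99 and -0.81. Cx3cr1 had 89.6, 220.7, 105.7, 90.3 and 190.8 in LA het, against 296.2, 238.6, 289.0, 347.2 and 216.4 in RA het, and its call was lost without 6 of the 10 arrays in turn (adjusted p up to 0.0807 by limma). The lectin receptor gene Clec10a, with 521.8, 881.7, 932.2, 463.8 and 569.0 in LA het, against 351.2, 123.0, 156.4, 388.1 and 97.7 in RA het, and the mannose receptor gene Mrc1 (0.59) were higher in LA het, both of them without overlap. Clec10a lost its call without 5 arrays in turn (up to 0.0784). Without the arrays with Ucp1 over 100 the calls were 2, Cd207 and Vsig4, both higher in RA het. General macrophage markers (5, all detected) summed to between 1999.9 and 2840.1 in LA het and between 2393.6 and 3754.5 in RA het. Lymphocyte and dendritic cell markers had 0 of 11 calls and mast cell markers 0 of 6.

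Of the other tissue markers, endothelial and epicardial lists held calls. Endothelial markers had Aqp1, a water channel of capillaries, higher in LA het (0.62) and Eng and Vwf, the clotting protein of endothelium and endocardium, higher in RA het (-0.56 and -0.54), 3 of 23. Without the arrays with Ucp1 over 100 Vwf alone was called, and with the marker genes in the model Aqp1 alone. Krt7, a keratin of mesothelium, was the 1 call among 13 epicardial markers, with 24.4, 154.6, 98.2, 145.4 and 116.3 in LA het, against 382.6, 193.0, 292.4, 252.6 and 236.1 in RA het (-1.34). It was lost without LA het replicate 3, RA het replicate 1 or RA het replicate 3 (adjusted p up to 0.0745 by limma), and also without the arrays with Ucp1 over 100. Summed epicardial markers lay between 1262.1 and 4264.8 in LA het and between 3392.9 and 5842.8 in RA het. Of 13 tested fat cell genes 0 were called. Their median was 0.35, but -0.14 without the arrays with Ucp1 over 100, and in wt mice it was -0.26. Schwann cell markers had 0 of 9 calls and red blood cell genes 0 of 4.

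**Figure D4:**
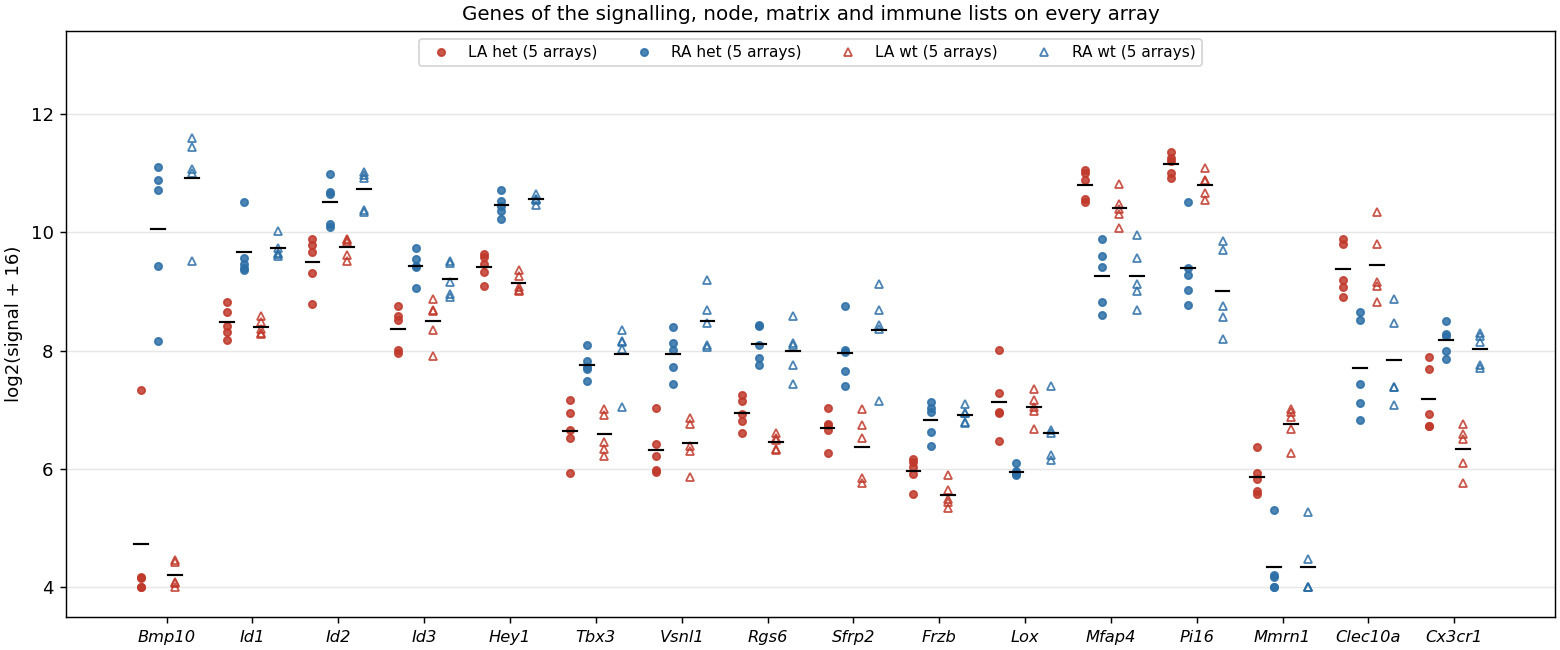
Log2(signal + 16) of 16 genes of the BMP, node, Wnt, matrix, lymphatic and macrophage lists on every array, LA het (filled red circles), RA het (filled blue circles), LA wt (open red triangles) and RA wt (open blue triangles), with black bars for means of 5 arrays. The sides of het mice differ in the same direction as those of wt mice for all 16, and Cx3cr1 overlaps between LA het and RA het.

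The side differences of heterozygous mice were set beside those of wild-type mice, which share no arrays with them but share the estimate of the spread. Of the 360 genes called in het mice, 253 were also called in wt mice, all in the same direction. This is 70.3% of the het calls and 54.9% of the 461 wt calls, among 11154 genes tested. The other 107 had the same sign in wt mice, but the share of all tested genes with the same sign in both genotypes was not counted. Of these 107, 62 were higher in LA het and 45 in RA het. For the leading right-sided genes the differences in het and in wt mice were -5.33 and -6.72 for Bmp10, -4.16 and -5.62 for Cd207, -3.70 and -5.55 for Cxcl13 and -3.10 and -4.82 for Vsig4. LA het replicate 2 was the highest LA het array for Bmp10, Cd207 and Vsig4. Leaving out 1 het array at a time gave het differences from -5.98 to -5.07 for Bmp10 and from -4.53 to -3.9 for Cd207. For Cxcl13 they ran from -3.95 to -3.53 and for Vsig4 from -3.34 to -2.86. The part of single arrays in the smaller het differences was not tested. Hamp, at -3.28 and -3.49, and Dbh, at -2.58 and -2.71, were closer in size. On the left they were 2.86 and 4.21 for Ccl21a, 2.44 and 3.49 for Ddit4l and 1.98 and 3.30 for Rprm, but 2.65 and 2.42 for Scara5 and 2.67 and 1.99 for Timp4.

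Whether a side difference differed between the genotypes was tested in the same fit, and 2 of 20097 probes passed (0.00995%), neither with a gene name, while 609 had an unadjusted p under 0.05. No named gene passed. Arpp21 was nearest, with signals of 39, 47.8, 25, 34.2 and 15.5 in LA het, against 145.7, 180.6, 281.5, 210.8 and 201.0 in RA het, and its difference was smaller in het than in wt mice by 1.57 (adjusted p = 0.0889 by limma). Rprm followed with a change of -1.32 (adjusted p = 0.163) and Cxcl13 with 1.85 (adjusted p = 0.418). A p above the threshold does not show that the genotypes share these differences. Genes called in het mice whose wt difference had a p over 0.5 were Mknk1, a kinase that phosphorylates a translation factor (0.37 in het, 0.00 in wt), Vamp5, a vesicle protein of muscle (-0.51 and -0.06) and Scara3 (0.82 and 0.12). Mknk1, Vamp5 and Scara3 lost their het call without 8, 7 and 8 of the 10 het arrays in turn.

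**Figure D5:**
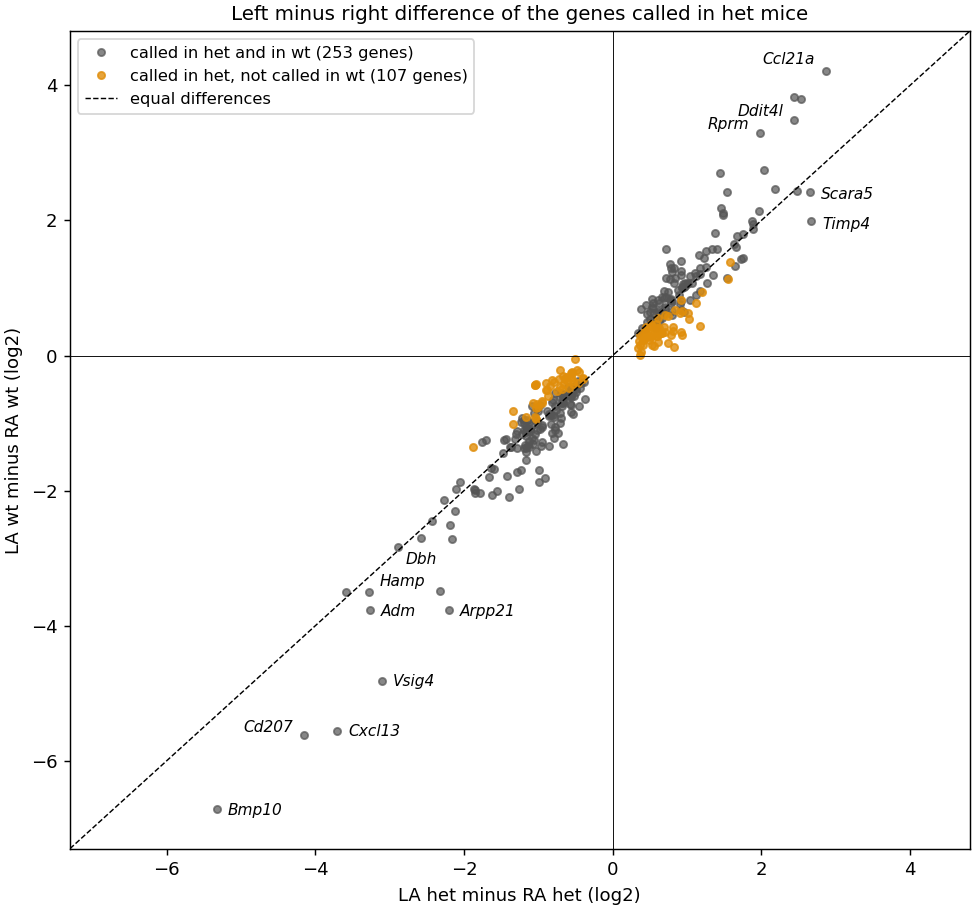
Left minus right difference (log2) in het mice, on the horizontal axis, and in wt mice, on the vertical axis, for the 360 genes called in het mice. Grey points (253) are called in both genotypes and orange points (107) in het mice and not in wt mice, and the dashed line marks equal differences. Bmp10, Cd207, Cxcl13 and Vsig4 lie below the line on the right-sided end, and all points share their sign between genotypes.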

How the data were processed

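Gene expression was measured in atrial appendages on 20 Illumina bead arrays of 45281 probes each, in 4 groups of 5 by the labels. The gene for which the het mice are heterozygous is not reported here. Per the labels' protocols, RNA was extracted with RNeasy columns and labelled with biotin as cRNA (TotalPrep kit), and no scanner software or normalization is named. The deposited intensities are linear and reach below 0, and sorted arrays are equal within 1.8 units, so a background had been subtracted and arrays quantile-normalized by the authors. The authors deposited a detection p-value column that holds 1 minus the p and was turned round. Both deposited tables hold the same values.

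From these, values below 0 were set to 0, 16 was added and log2 taken, without a second correction. The 20097 probes detected (p under 0.05) on 5 or more of the 20 arrays were tested. Het arrays detected between 17316 and 19223 probes, and the dimmest detected signal was 14.1 to 20.5 by array; the number of arrays limits the precision. A model of 4 group means was fitted with limma 3.58.1 in R 4.3.3 (lmFit, eBayes) with Benjamini-Hochberg adjustment over all tested probes, once for LA het minus RA het and once for its difference from LA wt minus RA wt. Its recovery of known changes was tested on simulated arrays with independent normal noise. Shared mice and stray arrays were not simulated, so that test does not cover them. Where no array of a group detected a probe, the fold is given as a minimum, set against the dimmest detected signals there. Names came from the platform annotation (34885 probes have 1 symbol, 18 several, 10378 none; unnamed probes were tested), and the symbols of 34807 were found in RefSeq. The brightest tested probe stood for its gene.

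Named genes were the 15 largest called differences a side, genes and members of 33 lists written out for heart functions and cell types (all called members, up to 4 others), and those with the smallest p between genotypes or little wt difference. Members, lists and genes were chosen with earlier results of these data known. Alternatives covered scale, filter, variance model, block, covariates and arrays left out.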

Additional observations from a re-analysis of the deposited data

Results flagged for a closer look

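In 45 genes, those with the largest differences and those named in the rule, the 5 arrays of each side were searched for 1 array far from the others by Dixon's ratio on the log2 scale, with a critical value of 0.71. Of 90 groups, 4 had such an array, and chance alone flags about 1 in 20. LA het replicate 2 was such an array for Bmp10, Adm and Myl2. It had a Bmp10 signal of 144.7, against -3.7 to 2.1 on the other LA het arrays, an Adm signal of 167.6 against 41.2 to 44.5, and a Myl2 signal of 3999.7 against 107.6 to 237.2. The fourth was RA het replicate 1, where Dlgap1 had 93.2 against 22.4 to 32 on the other RA het arrays.

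Both probes whose side difference differed between the genotypes have no gene name here and were picked for this text by these values. ILMN_3118071 had signals of 1464, 1186.5, 1418.1, 1154.6 and 1467.2 in LA het, against 835.1, 439, 439, 463.9 and 435.1 in RA het. In wild-type mice it had 1609.8, 1442.2, 1596.9, 1385.7 and 1134.5 in LA wt and 25.3, 37.2, 17.9, 18.2 and 22.9 in RA wt. The side difference was 1.37 in het mice and 5.18 in wt mice, a change of -3.81 (adjusted p = 2.29e-08 by limma). ILMN_1220244 had 290.4, 240.5, 265.8, 215.3 and 349 in LA het, against 141.2, 74.7, 106, 105.3 and 71.3 in RA het, while all RA wt arrays lay between -5.4 and 5.9. Its side difference was 1.33 in het mice, a change of -2.68 from wt (adjusted p = 3.64e-06 by limma). Both probes were brighter on every RA het array than on any RA wt array, and the sides did not overlap in either genotype.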

How the results depend on the processing

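The main settings called 512 probes, 247 higher in LA het and 265 in RA het. No named call turned its direction under any of 26 other settings, and of 80 called named genes 30 were called in all 26, 57 in at least 3 in 4 of them and 5 in fewer than 1 in 2 (Tbx2, Myom2, Mmp2, Col15a1 and Scara3). Of 133 named genes not called, 8 passed in some setting. With the 10 het arrays fitted alone, 316 probes were called, 138 of them higher in LA het. At an adjusted p under 0.01, 241 were called. Without a filter on dim probes 159 were higher in LA het. Without the arrays whose Ucp1 passed 100, 248 were called (106 in LA het, 142 in RA het), and with Upk3b, Adipoq and Myl2 levels in the model 211 (122 and 89). Normexp with a second quantile normalization called 524, and leaving out the 3 arrays that stood apart together, chosen after seeing the data, 463 (201 and 262). Leaving out 1 array at a time gave 345 to 522 probes, 150 to 250 in LA het and 195 to 275 in RA het, and 2 or 3 probes between genotypes. Of the 80 called named genes, 55 kept the call whichever of the 10 het arrays was left out and 25 lost it without at least 1. Fewer samples lower the power, and the causes of the other changes were not tested.

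The labels do not say that replicate numbers mark a mouse. Residuals of same-numbered LA het and RA het arrays correlated at 0.107, -0.296, 0.0125, -0.168 and 0.118, so the numbers were not taken as pairs. With the number as a fixed replicate block 327 probes were called, 138 higher in LA het and 189 in RA het, and as a random block 532 (estimated correlation 0.018). Genes not detected on a side have only a lower bound there, which holds for 15 called genes in LA het and 11 in RA het, and signals near the top of the array carry little range.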

Other observations

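Other called genes, picked here after their values were seen, include secreted and receptor genes outside the lists. Igfbp3, which binds insulin-like growth factors, had signals of 391.2, 351.1, 411.8, 425.9 and 282.8 in LA het, against 1345.4, 2134.8, 1314.7, 1292.3 and 2604.4 in RA het (log2 difference -2.13, adjusted p = 1.19e-05 by limma), and Igf2, one of its ligands, had 6501.3, 4369.9, 7275.2, 5998.9 and 5865.1 in LA het, against 12415.2, 16194.8, 13383.9, 9743.9 and 13517.3 in RA het (-1.12, adjusted p = 0.000585). Neither overlapped between the sides, and of 2 Igfbp3 probes 1 was called. Ror2, a receptor for Wnt5a, differed by -1.32 (adjusted p = 3.42e-07 by limma), with signals of at most 45.6 in LA het and at least 106.4 in RA het. Msc, the bHLH repressor musculin, differed by -1.85, Asic1, an acid-sensing ion channel, by -2.06 and Fgfr2, a fibroblast growth factor receptor, by -1.11. Il6, the cytokine interleukin 6, was detected on 0 LA het and 5 RA het arrays and was at least 1.77-fold higher in RA het.

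On the left, Ace, the angiotensin-converting enzyme, had 237, 257.3, 220.2, 227 and 188.5 in LA het, against 99.2, 94.1, 86.5, 91.1 and 55.4 in RA het (1.27, adjusted p = 0.000457 by limma). Drd2, a dopamine receptor, differed by 1.64, with 88.9 to 303.9 in LA het and 33.6 to 58.1 in RA het. The lectin receptor Mgl2 differed by 1.72, with 1 of its 2 probes called. It is a close relative of Clec10a, and the probes of the pair may read both. The kinase gene Wnk4 differed by 1.00 and Cav1, which forms caveolae, by 0.58, both without overlap. Has2, a hyaluronan synthase, was detected on 4 LA het and 0 RA het arrays and was at least 1.09-fold higher in LA het. The differences of all these genes had the same sign in wild-type mice.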
